A study of Mus musculus with 12 samples.

Results

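Circular RNAs (circRNAs) arise by back-splicing, in which a splice donor is joined to an acceptor upstream of it, and they are recognised by reads across that junction. The circles of 2 genes of liver metabolism, Adk and Gbe1, were examined. All rows of the circRNA table that lay inside either gene, with at least 1 end on an annotated exon boundary of it, were taken. This gave 40 of 16445 junctions, 17 from Adk and 23 from Gbe1, and no row inside either gene was left out by the boundary rule. The pair of genes was selected on the measured abundance of their circles over these 12 libraries, so abundance and ranks are given as a description and were not tested.

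The table came from bulk liver of 12 mice, of a strain that the labels spell C57BL/8. The labels used here state neither sex nor age. All 12 mice received carbon tetrachloride (CCl4), a hepatotoxin that causes liver fibrosis in rodents, injected 2 times a week as a 10% preparation (10 µl for every 10 g of mouse), and livers were collected in week 8. The 6 Control mice had CCl4 without PZH, and the 6 PZH mice also received PZH, the Chinese herbal preparation Pien Tze Huang, once a day at 25 mg/ml from week 2 to week 8. Livers of mice without CCl4 were not analysed here, and the question addressed is which circles differ when PZH is added to CCl4.

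Adk encodes adenosine kinase, which phosphorylates adenosine to AMP. By removing adenosine it helps the hydrolysis of S-adenosylhomocysteine to proceed, which keeps the methionine cycle of the liver turning. Gbe1 encodes the glycogen branching enzyme, which adds branch points to the growing glucose chains of glycogen, the store from which the liver releases glucose. Circles made of coding exons, as here, need not have any part in these enzyme activities, and the table does not measure the linear mRNAs.

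Values are in SRPBM, the authors' name for their signal, a term used for spliced reads relative to the mapped reads. The smallest value of a library was taken as 2 read pairs, which the low values of the table fit only in part, and a value on that scale is called a read-pair equivalent. The libraries held 80442 to 130487 read-pair equivalents and 28922 to 41080 SRPBM in all, and Control 2 was the shallowest. An entry of 0 is described as listed at 0, since it need not mean that the circle was missing. Circles with such an entry are given by library or by range in place of a mean.

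The names hepatocyte and metabolic in the working description of these circles rest on the known roles of the genes. In bulk liver the cell of origin of a circle cannot be told, and fewer cells of a type cannot be told apart from less RNA per cell. Of 20 hepatocyte marker genes, 17 had at least 1 circle in the table, and the summed level of these markers was 270 to 372 SRPBM in PZH and 242 to 416 in Control. Most of that sum came from Abcc2, which averaged 212 SRPBM over the libraries. Of 13 stellate cell markers only Reln was a host, at 4.12 to 11.7 SRPBM in PZH and 0 to 3.32 in Control, and 12 had no circle, Lrat, Des and Col1a1 among them. Of the 6 Reln circles 1 was tested, and it did not pass (log2 fold change 1.11, limma adjusted p = 0.718). How many of all hosts had ranges that do not overlap was not counted. Macrophage markers (5 of 11 genes in the table) summed to 40.6 to 65.7 SRPBM in PZH and 34.0 to 56.6 in Control. This sum was nearly all Adgre1, which averaged 45.4 SRPBM over the libraries, while each other macrophage host averaged at most 0.210. Endothelial markers (7 of 10) gave 2.39 to 13.5 and 1.99 to 12.3, and cholangiocyte markers (2 of 8) gave 3.88 to 12.5 and 1.75 to 16.3. Of 25 tested hepatocyte marker circles, 2 were higher and 3 lower in PZH at an unadjusted limma p under 0.05. Of 5 tested macrophage marker circles, all of 1 host, 2 were higher and 0 lower. Over all circRNAs tested, the shares were 4.55% higher and 3% lower. The endothelial and cholangiocyte lists had 1 tested circle each and 0 under 0.05. None of these marker circles passed after adjustment. The part of these cell types in the values of the Adk and Gbe1 circles was not tested.

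The sequences across some of the most abundant junctions are shown because they are what the reads had to contain to be counted. Adk exons 8 to 10, with a higher mean level than exons 4 to 6, is not among them. The sequences were assembled from GENCODE M21 transcripts in the GRCm38 build and run 5′ to 3′ on the strand of the gene, which is the plus strand for both. Lower case marks the last 20 bases of the downstream exon and capitals mark the first 20 bases of the upstream exon, so that the change of case is the back-splice point.
Adk exon 5 to exon 6, chr14:21234833-21240571: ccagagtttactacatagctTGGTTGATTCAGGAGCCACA
Adk exon 5 to exon 7, chr14:21234833-21318183: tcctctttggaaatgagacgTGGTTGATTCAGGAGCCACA
Adk exon 4 to exon 6, chr14:21169800-21240571: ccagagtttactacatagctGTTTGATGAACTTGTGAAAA
Adk exon 8 to exon 9, chr14:21369071-21381617: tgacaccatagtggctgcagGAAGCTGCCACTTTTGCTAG
Gbe1 exon 4 to exon 7, chr16:70433545-70441319: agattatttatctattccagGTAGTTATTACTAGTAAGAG
Gbe1 exon 3 to exon 7, chr16:70401734-70441319: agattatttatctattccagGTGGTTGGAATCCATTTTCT
The first Adk sequences share 20 bases on one side or the other: exons 5 to 6 and 5 to 7 have the same start, and exons 5 to 6 and 4 to 6 have the same end. The Gbe1 pair likewise shares the end of exon 7.

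The most abundant Adk circle is short enough to show as a whole. It joins 173 bases of exon 5 and 109 bases of exon 6 into 282 bases, and the 20 bases at each end that meet at the back-splice are in capitals.
Adk exon 5 to exon 6, complete circle: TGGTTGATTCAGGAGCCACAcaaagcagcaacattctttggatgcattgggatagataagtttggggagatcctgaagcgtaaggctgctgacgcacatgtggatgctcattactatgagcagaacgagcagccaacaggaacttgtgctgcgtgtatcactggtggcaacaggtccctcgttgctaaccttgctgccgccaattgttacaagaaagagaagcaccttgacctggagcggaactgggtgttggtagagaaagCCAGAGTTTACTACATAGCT
All of it is coding sequence, codons 91 to 184 of Adk-201, the reference transcript with 11 exons. Its length is a multiple of 3, as was that of 37.7% of the 15689 circRNAs of the table with both ends on boundaries of 1 transcript. Read in the frame of the host for 3 laps, it held no stop codon, and it held no ATG in that frame. The most abundant Gbe1 circle joins exons 4 to 7 of Gbe1-201 into 563 bases of codons 144 to 331. That length is not a multiple of 3, and the host frame met a stop codon starting 1 base past the back-splice point. These are features of the letters, and translation was not measured.

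Adk lies at chr14:21052574-21448569 (ENSMUSG00000039197.10) and Gbe1 at chr16:70313949-70569716 (ENSMUSG00000022707.16). By summed SRPBM, Adk ranked 4th and Gbe1 11th of 4728 host genes, and they carried 1.13% and 0.677% of all the signal in the table. By the number of junctions they ranked 66th and 27th. The sums corresponded to means of 1264 and 753 read-pair equivalents per library, for which counting error alone gives a coefficient of variation of 2.81% and 3.64%. Between mice it was 26.9% (PZH) and 27.5% (Control) for Adk and 16.3% and 13.8% for Gbe1.

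Each gene put most of its signal into 1 circle. The circle of exons 5 to 6 held 89.0% of the Adk sum and the circle of exons 4 to 7 held 85.8% of the Gbe1 sum. Among the 102 other hosts with 15 to 25 junctions, the leading circle held a median of 42.1% (10th to 90th percentile 25.5% to 61.4%), and 98.0% of these hosts had a lower share than Adk and than Gbe1. As the genes were picked with these levels known, this places them in the table and is not a test.

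**Figure D1:**
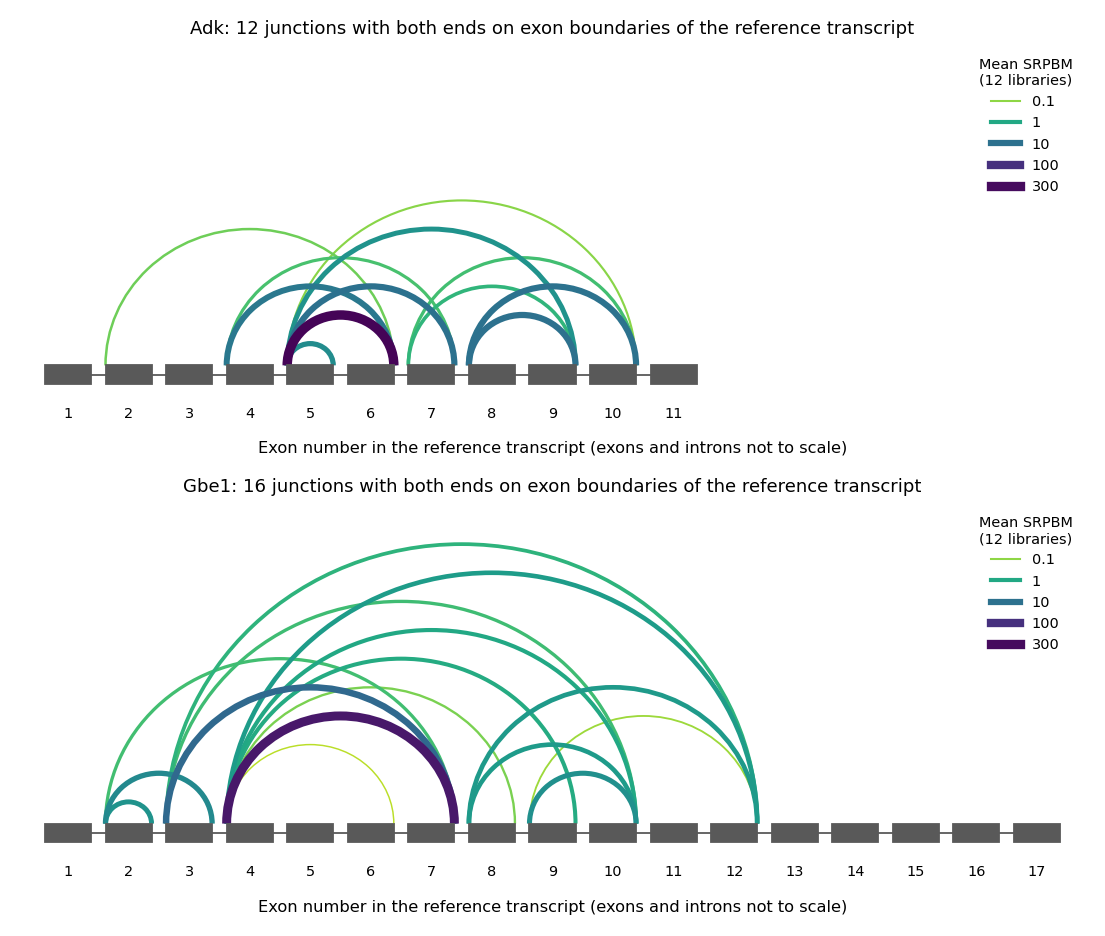
Back-splice junctions of Adk (12) and of Gbe1 (16) with both ends on exon boundaries of the reference transcript, drawn as arcs from the first to the last exon, with exon number along the horizontal line (not to scale). Width and colour give the mean SRPBM over 12 libraries on a log scale, and 1 arc in each gene, exons 5 to 6 of Adk and exons 4 to 7 of Gbe1, stands above all others.

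Some of the other circles shared a splice site with the leading circle, and others used neither of its sites. Counting the leading circle itself, 7 Adk junctions began at exon 5 and together held 93.0% of the sum, and 4 junctions ended at exon 6 with 90.9%. Counted in the same way, 8 Gbe1 junctions began at the first base of exon 4, with 87.6% of the sum, and 5 ended at exon 7, with 92.5%. A separate group of Adk junctions began at exon 8 (2 junctions, 4.73% of the sum). No Adk junction used exon 1, 3 or 11 as an end, and no Gbe1 junction used exon 1 or any exon after 12.

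The exons of both leading circles sat between long introns. The Adk circle is preceded by an intron of 64954 bases and followed by one of 77441 bases. The latter is the longest of the 10 Adk introns, and the intron inside the circle, of 5457 bases, is the shortest. The Gbe1 circle is flanked by introns of 31695 and 36986 bases and encloses introns of 843, 2278 and 4091 bases. Over the 15689 circRNAs placed on a transcript, the shorter of the 2 flanking introns had a median of 3106 bases, and it was shorter than that of the Adk circle in 99.4% of them and than that of the Gbe1 circle in 97.0%. Among the 1076 of these that were above 0 in all 12 libraries, whose median was 6802 bases, the shares were 99.4% and 95.1%. Such introns were not particular to the leading circles. Adk exons 4 to 6, at most 13.0 SRPBM in any library, lie between introns of 65926 and 77441 bases. Gbe1 exon 2 alone, at most 5.62 SRPBM, lies between introns of 46562 and 40706 bases. Other weak circles had shorter ones, such as Gbe1 exons 9 to 10 with 5399 and 3807 bases. Intron length was not part of the choice of members, and these are positions in a distribution with no test.

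**Figure D2:**
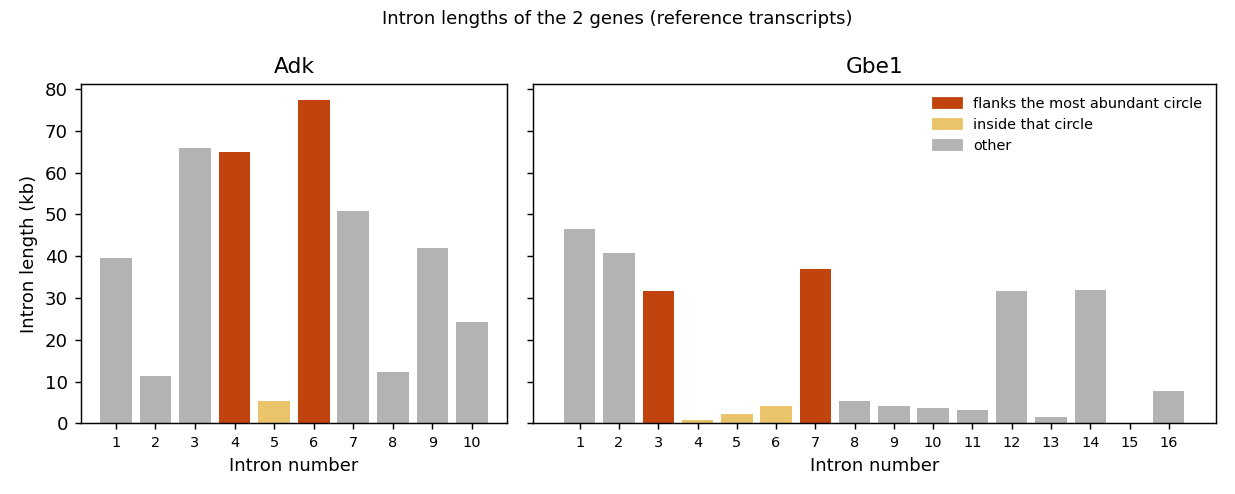
Length in kb of each intron of Adk (10) and Gbe1 (16) by intron number in the reference transcripts. Bars in red flank the most abundant circle (64954 and 77441 bases in Adk, 31695 and 36986 in Gbe1), and bars in yellow lie inside it (at most 5457 bases).

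The circle of Adk exons 5 to 6 spanned the widest range between mice. In PZH 1 to 6 it stood at 254.2, 469.0, 379.5, 276.2, 230.1 and 311.5 SRPBM. In Control 1 to 6 it stood at 534.4, 343.7, 515.7, 384.1, 389.9 and 233.8 SRPBM. The highest values were in Control 1, Control 3 and PZH 2, the lowest in PZH 5 and Control 6, and the groups overlapped. PZH averaged 320 ± 89.6 SRPBM against 400 ± 111.9 for Control (SD, n = 6 each). The log2 fold change of PZH against Control was -0.31 (SE 0.18), with a limma p of 0.0878 before and 0.686 after adjustment. It did not pass. The unadjusted limma p was 0.0150 with median-of-ratios scaling, 0.0112 with scaling by summed SRPBM and 0.00339 with quantile normalisation. It was 0.317 without the variance trend. The adjusted p at these settings was 0.475, 0.444, 0.287 and 0.858.

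The circle of Gbe1 exons 4 to 7 was more even. In PZH 1 to 6 it measured 202.7, 270.2, 226.2, 224.6, 191.4 and 239.2 SRPBM, and in Control 1 to 6 it measured 172.3, 159.5, 231.4, 206.1, 193.4 and 174.2 SRPBM. PZH 2 was the highest and Control 2 the lowest, and Control 3 lay among the higher PZH values. PZH averaged 226 ± 27.8 SRPBM against 189 ± 26.3 for Control (SD, n = 6 each). The log2 fold change was 0.25 (SE 0.11, 95% interval 0.03 to 0.47), with a limma p of 0.0259 before and 0.578 after Benjamini-Hochberg adjustment over the 3870 circRNAs tested, so it did not pass.

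Of the 40 junctions, 18 were above 0 in at least 6 libraries and could be tested, 7 from Adk and 11 from Gbe1. None passed the adjusted threshold of 0.05, against 0.0517% of all circRNAs tested (2 of 3870). Before adjustment, 2 of the 18 (11.1%) had a limma p under 0.05, against 7.55% of all tested. One was higher in PZH (the circle of Gbe1 exons 4 to 7, background 4.55%) and 1 was lower (Gbe1 exon 2 alone, background 3%). By sign, 7 estimates were positive and 11 negative, with a median log2 fold change of -0.14 beside 0.06 for all circRNAs tested. These junctions passed the filter on low values and are not all 40 members.

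**Figure D3:**
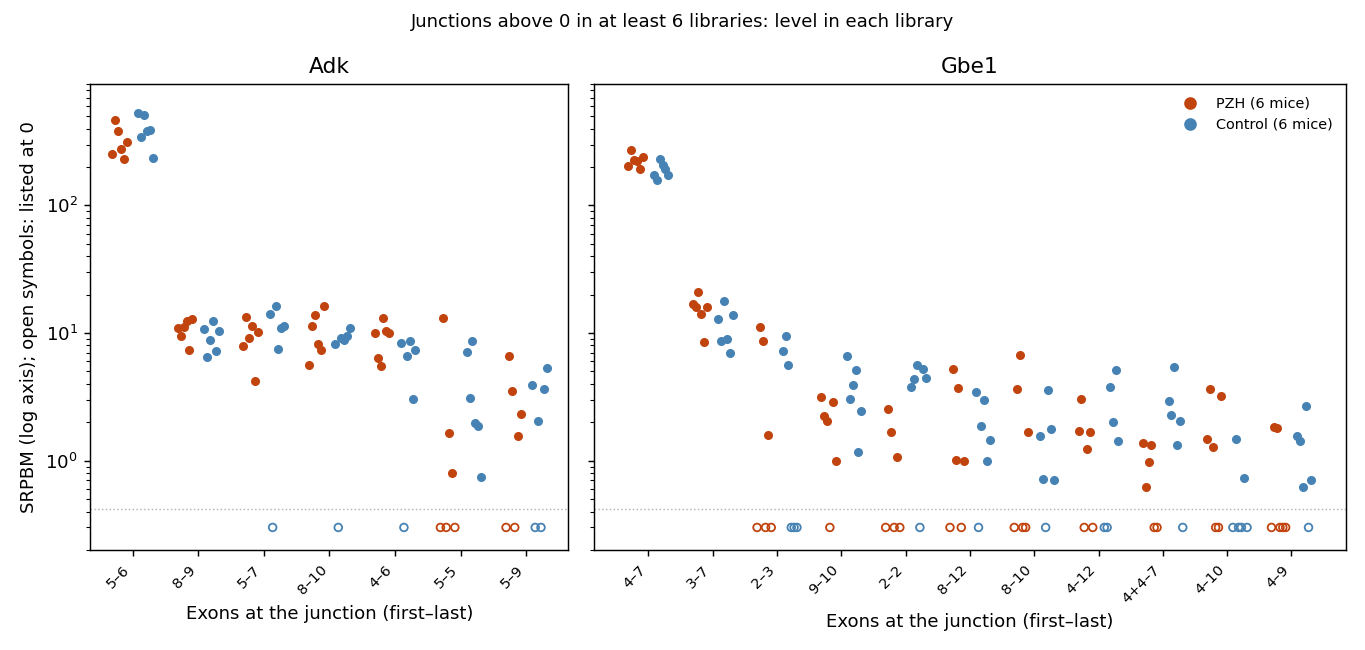
SRPBM on a log axis of the 18 tested junctions in each of 12 libraries (6 PZH, 6 Control), named by first and last exon (4+4–7 begins 4 bases into Gbe1 exon 4), with entries listed at 0 as open symbols below the dotted line. In each gene the leading circle lies at 159.5 SRPBM or more in all libraries and every other junction lies below 22 SRPBM.

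The second most abundant Adk circle shared no site with the first. Exons 8 to 9, a circle of 151 bases, gave 10.9, 9.56, 11.2, 12.3, 7.42 and 12.9 SRPBM in PZH 1 to 6 and 10.7, 6.54, 8.88, 12.3, 7.18 and 10.4 in Control 1 to 6. The groups overlapped almost fully, at 10.7 ± 1.99 against 9.34 ± 2.22 SRPBM (SD, n = 6 each), and the log2 fold change of 0.20 (SE 0.27) did not pass (limma adjusted p = 0.895).

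Control 2 stood apart in the other Adk circles. The circles of exons 5 to 7, 8 to 10 and 4 to 6 were each above 0 in 11 libraries, and all 3 were listed at 0 in Control 2 only. Where above 0, their medians were 11.0, 9.15 and 8.38 SRPBM, or 32.1, 29.2 and 26.2 read-pair equivalents. The same library held 343.7 SRPBM of the exons 5 to 6 circle. The number of Adk junctions above 0 was 3 in Control 2 and 6 to 12 in the other libraries.

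The circle of exons 4 to 6, which takes in 1 more exon upstream, ranged from 5.48 to 13.0 SRPBM in PZH and from 3.03 to 8.69 in the 5 Controls above 0. Its log2 fold change was 1.00 (SE 0.53, limma adjusted p = 0.686), and 0.42 without Control 2. Exons 8 to 10 ranged from 5.65 to 16.2 SRPBM in PZH and from 8.15 to 11.0 in those Controls, with a log2 fold change of 0.74, and 0.07 without Control 2. Exons 5 to 7 ranged from 4.24 to 13.3 in PZH and from 7.51 to 16.2 in those Controls. Its log2 fold change was 0.34 with all libraries and -0.38 without Control 2, so its sign rested on that library. None of these changes passed in either case.

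The lowest tested Adk circles were often listed at 0. Exon 5 closed on itself was above 0 in 3 PZH and all 6 Control libraries, at up to 13.1 SRPBM in PZH 2 and up to 8.63 in Control 3, with a log2 fold change of -1.28 (SE 0.78, limma adjusted p = 0.710). The circle of exons 5 to 9 was above 0 in 4 libraries of each group, at 1.57 to 6.56 SRPBM where above 0, with a log2 fold change of -0.12.

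In Gbe1 the second circle took in exon 3 as well. Exons 3 to 7, 679 bases, gave 16.8, 16.1, 21.1, 14.0, 8.44 and 16.1 SRPBM in PZH 1 to 6 and 12.9, 8.68, 17.9, 8.92, 6.93 and 13.7 in Control 1 to 6. PZH 3 and Control 3 were the highest and Control 5 the lowest, and the groups overlapped. The means were 15.4 ± 4.15 and 11.5 ± 4.09 SRPBM (SD, n = 6 each), and the log2 fold change of 0.42 (SE 0.28) did not pass (limma adjusted p = 0.731).

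Exons 3 to 7 and exons 4 to 7 end at the same base, so their ratio compares the use of the starts of exon 3 and exon 4 within a library. The longer circle was at 6.82% of the shorter in PZH and 6.08% in Control (means over 6 libraries). The log2 ratio differed by 0.19, with an exact 2-sided permutation p of 0.468 over 924 assignments of libraries to groups (n = 6 each), so no difference was detected. No other pair of circles sharing a site was above 0 in all 12 libraries.

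The remaining tested Gbe1 circles stayed below 12 SRPBM. Exon 2 closed on itself was above 0 in 3 PZH libraries (1.07 to 2.54 SRPBM) and 5 Control libraries (3.76 to 5.62 SRPBM, Control 4 at 0). The 5 Controls above 0 therefore lay above all PZH values, and Control 4 overlapped with PZH. Its log2 fold change was -1.61 (SE 0.71), with a limma p of 0.0340 before and 0.612 after adjustment. Exons 2 to 3 formed a circle that was above 0 in 3 libraries of each group, at 1.59 to 11.2 SRPBM, with a log2 fold change of -0.17. Exons 9 to 10 formed one that was at 0 in PZH 4 only, ranged from 1.00 to 3.18 SRPBM in the other PZH libraries and from 1.17 to 6.62 in Control, and had a log2 fold change of -0.86 (SE 0.60).

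Other tested Gbe1 circles ended at exon 9, 10 or 12. Exons 8 to 12, 8 to 10 and 4 to 12 were above 0 in 9, 8 and 8 libraries at no more than 6.75 SRPBM, with log2 fold changes of -0.26, -0.08 and -0.31. Exons 4 to 10 were above 0 in 4 PZH and 2 Control libraries (log2 fold change 0.97) and exons 4 to 9 in 2 PZH and 5 Control libraries (log2 fold change -0.68). None passed, and the 95% intervals of these 5 estimates all included 0.

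**Figure D4:**
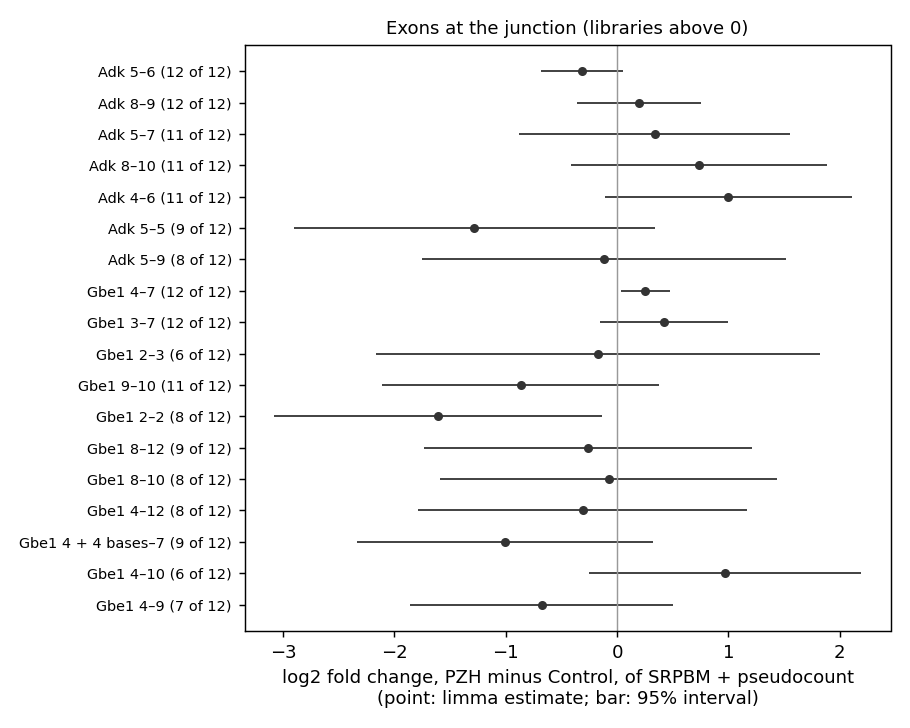
Log2 fold change of PZH against Control (limma estimate on log2 of SRPBM plus the pseudocount) with its 95% interval for the 18 tested junctions, each labelled with its exons and the number of libraries above 0. At the main setting shown, the intervals of Gbe1 4–7 (0.03 to 0.47) and Gbe1 2–2 (-3.08 to -0.13) do not cross 0, and neither passed after adjustment.

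One more Gbe1 circle differed from the leading circle by 4 bases. It began at 70433549, 4 bases inside exon 4, and ended at the same base of exon 7.
Gbe1 exon 4 plus 4 bases to exon 7, chr16:70433549-70441319: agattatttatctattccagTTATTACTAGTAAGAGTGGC
This start is an annotated exon start in transcript Gbe1-203. The 4 bases skipped, GTAG, are also the 4 bases that follow exon 3 in the genome at 70401850 to 70401853 and that end exon 3 in Gbe1-203, so both annotations give the same linear mRNA. The circle was above 0 in 4 PZH libraries (0.618 to 1.37 SRPBM) and 5 Control libraries (1.33 to 5.42 SRPBM), with a log2 fold change of -1.01 (SE 0.64, limma adjusted p = 0.721). A further junction, in Control 4 alone at 1.70 SRPBM, had both ends shifted by 4 bases (70433549 to 70441323), so its genomic span of 7775 bases equalled that of the leading circle. Whether it is a second placement of the same reads was not tested.

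The other 22 junctions were above 0 in fewer than 6 libraries and were not tested. Of these, 14 were above 0 in 1 library and 8 in 2 to 5 libraries, at 0.591 to 4.61 SRPBM. They included the longest circles by exon number, such as Gbe1 exons 3 to 12 (1305 bases, 3 libraries) and Adk exons 5 to 10 (691 bases, 1 library). The 4 circles that were above 0 in all 12 libraries carried 91.4% of the summed signal of both genes.

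Besides the Gbe1 junction with both ends shifted, whose end lies 4 bases past exon 7, 9 of the rare junctions had 1 end inside an intron. In Adk, 2 of them started at exon 5 and ended 21195 and 33065 bases into intron 6, and 3 began 3142 bases before exon 5, 3162 before exon 7 and 2829 before exon 9. In Gbe1, a junction from intron 3 to exon 7 was above 0 in 5 libraries (at most 3.97 SRPBM) and a junction from exon 3 into intron 3 in 1 library (2.17 SRPBM). The start of the former, chr16:70413313, and the end of the latter, chr16:70413404, bound a stretch of 92 bases that the annotation does not hold as an exon. The 2 others ran from Gbe1 exon 4 into intron 7, 3589 and 24924 bases past exon 7.

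Summed over all junctions of the gene, Adk was at 289, 534, 423, 328, 263 and 371 SRPBM in PZH 1 to 6. In Control 1 to 6 it was at 593, 353, 569, 424, 428 and 281 SRPBM. The groups overlapped, at 368 ± 99.2 and 442 ± 121 SRPBM (SD, n = 6 each). The log2 fold change was -0.26 (SE 0.17, 95% interval -0.61 to 0.10, limma adjusted p = 0.710). Among 2204 host genes tested, 0% passed, and 8.21% had a limma p under 0.05 before adjustment. Adk was not one of them at the main setting, with a limma p of 0.150, but this depended on the scaling. The unadjusted limma p was 0.0287 with median-of-ratios scaling, 0.0206 with scaling by summed SRPBM and 0.0178 with quantile normalisation, with adjusted p of 0.469, 0.445 and 0.393. Without the variance trend it was 0.351 (adjusted 0.833).

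The Gbe1 sums were 229, 329, 276, 249, 207 and 266 SRPBM in PZH 1 to 6 and 220, 191, 278, 239, 218 and 201 in Control 1 to 6. They overlapped as well, at 259 ± 42.4 and 225 ± 30.9 SRPBM (SD, n = 6 each). The log2 fold change was 0.20 (SE 0.12, 95% interval -0.04 to 0.45), with a limma p of 0.0999 and an adjusted p of 0.664. Scaled by median of ratios the unadjusted limma p was 0.0353, and scaled by library sum it was 0.0423 (adjusted 0.481 and 0.510). Without the variance trend it was 0.335 (adjusted 0.826). Under quantile normalisation the Gbe1 estimate was at -0.000511, so its sign depended on the scaling.

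The ratio of the Adk sum to the Gbe1 sum within a library does not depend on a single scaling factor for that library. Quantile normalisation is not such a factor, and no ratio was tested under it. The host sum estimates there were -0.18 for Adk and -0.000511 for Gbe1. At the deposited values the ratio stood at 1.27, 1.62, 1.53, 1.32, 1.27 and 1.39 in PZH 1 to 6 and at 2.69, 1.85, 2.05, 1.77, 1.96 and 1.40 in Control 1 to 6. Of the Controls, 5 lay above all PZH libraries, and Control 6 lay among them. The geometric means were 1.39 in PZH and 1.92 in Control, a ratio of 0.727 (95% interval 0.595 to 0.889, from inversion of the permutation test). The log2 difference of -0.46 had an exact 2-sided permutation p of 0.00866 (n = 6 each, 924 assignments), and 0.0433 after Benjamini-Hochberg adjustment over 5 values compared in this way. The adjustment covers these 5 values only, which were chosen with earlier results of these data known. Ratios of other pairs of hosts were not compared.

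That call was close to the threshold. Leaving out 1 library at a time, the exact permutation p ran from 0.00216 to 0.0173 and the adjusted p from 0.0108 to 0.0866. The call was lost without any of PZH 1, 3, 4, 5 and 6 or of Control 1, 2, 3 and 5, and it held without PZH 2, Control 4 or Control 6. The direction was the same in all 12 cases, with log2 differences of -0.55 to -0.36. With only the leading circle of each gene, an alternative chosen after the data were seen, the log2 difference was -0.57 with an adjusted p of 0.0649. The ratio pairs 2 genes that were brought together with their levels known, and it compares groups of libraries, not the levels of the 2 genes.

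**Figure D5:**
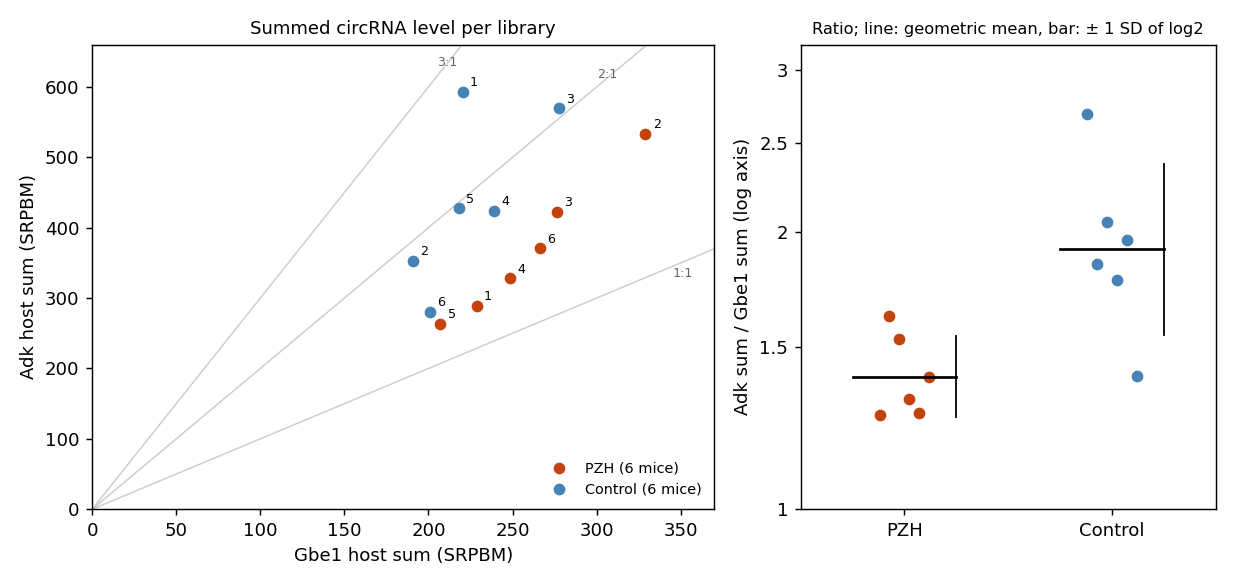
Left, summed SRPBM of Adk against Gbe1 in each of 12 libraries, numbered by replicate, with grey lines at ratios of 1, 2 and 3; right, the ratio per library on a log axis with the geometric mean and 1 SD of the log2 ratio. The PZH libraries lie between 1.27 and 1.62, and 5 Control libraries lie between 1.77 and 2.69, with Control 6 at 1.40.

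The mix of junctions within each gene was not shown to differ. The leading Adk circle took 86.8 ± 2.29% of the Adk sum in PZH against 90.5 ± 4.45% in Control. An exact permutation test gave p = 0.115, or 0.287 after adjustment (SD over 6 libraries a group). Control 2, with 97.3% and 3 junctions, was the highest, and Control 6, with 83.3%, the lowest. Without Control 6 the difference was -5.07 percentage points and its adjusted exact permutation p was 0.0108, so that library alone decided the call. The leading Gbe1 circle took 87.5 ± 4.45% in PZH against 84.4 ± 3.67% in Control, and the exact permutation p was 0.216, or 0.361 after adjustment. The mean number of junctions above 0 per library was 8.0 in both groups for Adk, and 9.17 in PZH and 10.3 in Control for Gbe1 (exact permutation p = 0.519, n = 6 each).

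Across the 12 libraries the leading circles of the genes did not vary closely together. On log2 SRPBM, Adk exons 5 to 6 and Gbe1 exons 4 to 7 had a Pearson r of 0.24 (permutation p = 0.449) and a Spearman rho of 0.22 (permutation p = 0.485). Within PZH r was 0.90 and within Control 0.43, and over all libraries it was -0.47 once values were scaled by the summed SRPBM of the library. Without PZH 5 and Control 6, the libraries farthest from the median on the Adk axis, r was 0.02. Of the 6 pairs among the 4 circles above 0 in all libraries, none passed after adjustment. The closest were Adk exons 8 to 9 with Gbe1 exons 3 to 7 (r = 0.59, rho = 0.48, permutation p 0.0426 and 0.117, adjusted 0.166 and 0.269) and the pair of Gbe1 circles (r = 0.57, rho = 0.66, permutation p 0.0555 and 0.0238, adjusted 0.166 and 0.143). Without the 2 farthest libraries their r was 0.25 and 0.47.

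Among 1087 circRNAs above 0 in all libraries, the 3 of other hosts that varied most like Adk exons 5 to 6 were Asph exons 2 to 3 (r = 0.91), Mitf exons 6 to 7 (r = 0.87) and Tnrc6a exon 5 (r = 0.86). For Gbe1 exons 4 to 7 they were Psd3 exons 2 to 6 (r = 0.91), Rmdn2 exons 3 to 5 (r = 0.86) and Acaca exons 2 to 3 (r = 0.85). These are the highest of many values over 12 libraries that share depth and scaling, and the median r over all circRNAs compared was 0.21 for Adk and 0.25 for Gbe1. The permutation p adjusted over those compared was 0.0543 for Asph and 0.0807 to 0.0833 for the others, so none passed. The levels of the other hosts were of different size, with Asph at 741 ± 87.3 SRPBM in PZH and 772 ± 110 in Control and Rmdn2 at 325 ± 61.1 and 242 ± 30.4 (SD, n = 6 each).

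The other enzymes around adenosine kinase were represented by few circles. Of 76 genes of adenosine, purine and methionine cycle metabolism, 20 had circles in the table, 54 in all, of which 9 could be tested. None of the 9 had a limma p under 0.05 before adjustment, against 7.55% of all circRNAs tested. With so few tested, this does not set the list apart from that share. By sign, 3 estimates were positive and 6 negative, with a median log2 fold change of -0.06. Cth, the enzyme that makes cysteine from cystathionine, had a circle of exons 2 to 4 at 63.8 ± 20.7 SRPBM in PZH and 65.5 ± 13.7 in Control. Uox, urate oxidase, had exons 2 to 4 at 35.1 ± 5.12 and 39.8 ± 9.16 SRPBM. Xdh, which makes urate, had exons 21 to 24 at 26.4 ± 7.36 and 25.5 ± 4.76 SRPBM (SD, n = 6 each in these). A second Xdh circle (exons 18 to 20, log2 fold change -0.86), 2 circles of the S-adenosylhomocysteine hydrolase-like gene Ahcyl2 (-0.75 and 0.26) and 1 of Adsl, adenylosuccinate lyase (0.07), were each listed at 0 in at least 1 library and at no more than 6.50 SRPBM in any.

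The glycogen and glucose list gave a similar count. Of 55 genes, 24 had circles, 64 in all, of which 19 were tested. None had a limma p under 0.05 before adjustment, against 7.55% of all circRNAs tested, and 19 are too few to set the list apart from that share. By sign, 11 estimates were positive and 8 negative, with a median log2 fold change of 0.06, beside 0.06 for all circRNAs tested. Gys2, the liver glycogen synthase whose product Gbe1 branches, had a circle of exons 9 to 12 at 15.2 ± 4.53 SRPBM in PZH and 14.3 ± 4.11 in Control. Phkb, a regulatory subunit of phosphorylase kinase, had exons 3 to 5 at 11.2 ± 3.43 and 7.40 ± 2.46 SRPBM and exons 3 to 7 at 9.99 ± 2.76 and 6.91 ± 2.59 (SD, n = 6 each), with log2 fold changes of 0.56 and 0.53 and limma adjusted p of 0.686 and 0.710. Another Phkb circle of exons 9 to 15 (log2 fold change 1.28), Fbp1, fructose bisphosphatase (0.51), Pgm3, a phosphoacetylglucosamine mutase (-0.91), and G6pc, the catalytic subunit of glucose-6-phosphatase (-0.87), did not pass either.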

How the data were processed

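The authors deposited 1 table of circRNA junctions with a normalised signal (SRPBM) for 12 libraries, 6 PZH and 6 Control. Per the submitters' processing notes, Trim Galore and STAR were used with GRCm38. No source used here names the caller, its filters or how SRPBM was computed, so no count model was applied. Host genes and exons came from GENCODE M21.

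Limma 3.58.1 (R 4.3.3) with a variance trend was run on log2(SRPBM + 0.636), the pseudocount being the median of the libraries' smallest values, which understates changes of low circles. The filter kept 3870 circRNAs with a value above 0 in 6 or more libraries, and 2-sided p-values were adjusted over all of them (Benjamini-Hochberg, threshold 0.05). Host sums were treated likewise (2204 hosts). Values per library were compared by exact permutation (numpy 2.4.6). The fit was also run on simulated data, with the same noise for all circRNAs and changes placed only in the more abundant ones. That setting is unlike the low member circles and does not cover them. Alternatives changed the pseudocount, filter, scaling, variance model, zeros, pairing and libraries. The members, gene lists and tests were chosen with earlier results of these data known. Circles above 0 in at least 6 libraries were named, with per list the 4 most abundant circRNAs and the 2 with the smallest p in each direction, and the 3 most correlated with each leading circle. The labels name separate mice, and replicate numbers were not taken as pairs.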

Additional observations from a re-analysis of the deposited data

Results flagged for a closer look

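In 4 of 78 groups of 6 values examined, 1 library was set apart from the other 5 by a gap that Dixon's criterion marks, and chance marks about 1 group in 20. The circle of Adk exons 8 to 10 was listed at 0 in Control 2, with the next Control at 8.15 SRPBM. Adk exon 5 alone reached 13.1 SRPBM in PZH 2, with the next PZH library at 1.66. Gbe1 exon 2 alone was listed at 0 in Control 4, with the next Control at 3.76. The circle of Cth exons 2 to 4 reached 105 SRPBM in PZH 6, with the next PZH library at 61.0.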

How the results depend on the processing

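The 11 other limma settings and the 12 fits that left out a library gave 0 member circles past the threshold, except that without a filter on low values 2 passed, Adk exons 5 to 6 and Gbe1 exons 4 to 7 (adjusted p 2.86e-27 and 2.35e-05). There the SE of the former was 0.0271 in place of 0.176. Calls over all circRNAs numbered 30 without the filter, 10 in all 12 libraries, 12 with zeros as missing, and 1 with a pseudocount of 2 or with the replicate block, against 2. Adk and Gbe1 circles with an unadjusted limma p under 0.05 numbered 1 to 5 by setting and 0 to 4 by library left out. The Gbe1 sum was -0.000511 under quantile normalisation. Neither gene's sum passed after adjustment at any setting. Before it, the Adk sum also had a p under 0.05 without the filter (0.0454), and without PZH 2 or Control 6 (0.0383 and 0.0318), and the Gbe1 sum without the filter (0.0368) and without PZH 5 or Control 3 (0.0391 and 0.0333). In the other direction, leaving out 1 library raised the unadjusted limma p to as much as 0.372 for the Adk sum and 0.278 for the Gbe1 sum.

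Same-numbered samples were not paired by the labels, and their deviations correlated at -0.119 to 0.026. With the replicate block the log2 ratio of -0.46 had an exact permutation p of 0.03125, the smallest it can give, and an adjusted p of 0.156. No other test per library, none of which had a call before, gained one. That says little about their stability, as the smallest p is so high. With the leading circles only, the ratio was -0.57 and lost the call. Leaving out each library gave -0.55 to -0.36. For the Adk share the range was -5.07 to -2.26. The Gbe1 share differed by -0.659 points with the circles above 0 in all 12 libraries.

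With zeros as missing, signs turned for Adk exons 5 to 7 (-0.38), Gbe1 exons 8 to 12 (0.13), 8 to 10 (1.00) and 4 to 9 (0.36), Adsl (-0.44) and Fbp1 (-0.12). A pseudocount of 2 turned Gbe1 exons 8 to 10 (0.067) and Adsl (-0.027), quantile normalisation turned Adsl (-0.044), and Xdh exons 21 to 24 turned with median-of-ratios scaling (-0.021), summed scaling (-0.027) and library weights (-0.000288). Leaving out 1 library turned the sign of Adk exons 5 to 7 (-0.38 to 0.57) and 5 to 9 (-0.48 to 0.23). It did so for Gbe1 exons 2 to 3 (-0.54 to 0.16), 8 to 12 (-0.61 to 0.034), 8 to 10 (-0.51 to 0.20) and 4 to 12 (-0.63 to 0.00321). It also did so for Cth (-0.21 to 0.000520), Xdh (-0.083 to 0.18), Ahcyl2 exons 5 to 7 (-0.11 to 0.59), Adsl (-0.28 to 0.43), Gys2 (-0.063 to 0.23) and Fbp1 (-0.12 to 0.76). The cause was not tested. How far depth limits the circles of a few read-pair equivalents was not tested.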
